A study of Mus musculus with 14 samples.

Results

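Malat1 and Neat1 are long noncoding RNAs transcribed from neighbouring genes on mouse chromosome 19, and both are known as nuclear RNAs. Their 3′ ends were followed in 3T3 cells, a mouse fibroblast line, through a block of transcription and across a polysome gradient. The members are the 9 poly(A) sites, of 33590 in the deposited table, that lie on the minus strand of chromosome 19 (mm9) between 5795000 and 5803000 (Malat1, 6 ends) or between 5822000 and 5846500 (Neat1, 3 ends). They were chosen by position and not by their values. The plus strand held 0 sites in either window. The table names no genes, so the labels Malat1 and Neat1 rest on these positions.

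Malat1 is known for an unusual 3′ end. In the textbook account, RNase P, the enzyme that trims tRNA precursors, cuts the primary transcript just upstream of a small tRNA-like RNA (mascRNA), and the long RNA left in nuclear speckles ends in a genome-encoded stretch of A that folds into a triple helix instead of carrying an added poly(A) tail. Neat1 is made in a short, polyadenylated form and in a long form whose end is also made by RNase P, and the long form is the scaffold of nuclear bodies called paraspeckles.

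The assay was 2P-Seq: RNA selected for poly(A) is cut with RNase T1, reverse transcription is primed on A, and reads start at the presumed tail, so that each read gives 1 position whatever the RNA's length. Priming on A can also begin at a run of A inside an RNA. The libraries used were 2 untreated controls, a time course of actinomycin D (a blocker of transcription) with 1 library at each of 1, 2, 4 and 8 h, and 6 fractions of a sucrose gradient, in which RNAs with more ribosomes sediment further. All came from 3T3 cells with no genotype or other treatment named in the labels, and whether the controls were separate cultures is not stated. The fractions are called here by the number in the authors' column names (0, 1, 2.5, 4.5, 7.5 and 12), which recomputes their ribosomes per mRNA. Totals ran from 4045420 to 6433503 reads in the controls and treated libraries and from 1663346 to 11575417 in the fractions. The 2 libraries made by 3P-Seq, another 3′ end assay, are not analysed here.

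A few short stretches of the GENCODE M21 transcripts show what the ends described below may be read against. They are given 5′ to 3′, with the poly(A) signal AATAAA or the run of A in capitals, and were searched on the transcript strand only. The transcripts belong to another build (GRCm38) and were not placed on mm9, so only distances along the transcript are given.
Malat1-201, last 30 bases: ttttatgaAATAAAaactaaatatctctca
Malat1-201, 30 bases around its A run: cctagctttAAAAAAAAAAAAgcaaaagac
Neat1-202 (short form), last 30 bases: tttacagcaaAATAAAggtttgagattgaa
Neat1-201 (long form), last 30 bases: gagaacgaacgtgagcaggaaaaagcaaaa

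Malat1-201 is 6983 nt long and holds 1 run of 8 or more A, of 12 bases. After the first A of this run, 309 bases remain up to the 3′ end of the transcript. In mm9, the last Malat1 end (5795690) and the end before it (5795999) lie 309 nt apart. Whether reads at the upstream of these ends began at an added tail or at the encoded run was not tested. Of all GENCODE transcripts of at least 400 bases, 6.58% hold such a run in their last 400 bases. AATAAA begins 22 bases from the 3′ end of Malat1-201, and 23.3% of all transcripts hold AATAAA in their last 30 bases. It also begins 2730, 2676 and 1671 bases from the 3′ end, and the Malat1 ends 5798394 and 5798341 lie 2704 and 2651 nt before the last end. In the short Neat1 form AATAAA begins 303 and 20 bases from the 3′ end, and the ends 5842574 and 5842308 lie 266 nt apart. The long form runs 17599 bases further and its last 30 bases hold no AATAAA. The table used here has no site in the 20308 nt of the window downstream of 5842308.

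In the controls, reads were concentrated at the last end of each window. In raw reads, the last Malat1 end held 437 and 951 reads in controls 1 and 2, and the end 309 nt upstream of it held 163 and 102. The last Neat1 end (5842308) held 512 and 1183 reads. By mean control level these ends ranked 1746, 7083 and 1404 among 33590. The other ends were small. In the controls, the Malat1 end 5798394 had 59 and 125 reads and 5800534 had 13 and 12. The Neat1 ends 5842574 and 5843297 had 22 and 45, and 25 and 94. The Malat1 end 5798341 had 72 reads over all 12 libraries, and 5801405 had 2, both in the 2 h library. These ends were under the minimum for the tests below, and neither passed the authors' filter.

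The controls differed from each other at most of these ends. Divided by the header factors, control 2 was 2.03-fold control 1 at the last Malat1 end, 2.15-fold at the last Neat1 end and 3.45-fold at the Neat1 end 5843297. It was 0.584-fold at the Malat1 end 309 nt upstream of the last. Among 8285 ends with at least 200 control reads, the log2 ratio of the controls had an SD of 0.42 around a median of 0.06. Of these ends, 97.2%, 98.0%, 99.96% and 1.10% lay below the 4 ends just given. The third, 5843297, had only 119 control reads itself, so its ratio holds more counting error than those it is set among. All decay values below are set against both controls pooled. They are relative to the header factors, and whether these factors follow a change in total poly(A) RNA was not tested.

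The last 2 Malat1 ends had opposite profiles after actinomycin D. Reads divided by the header factor, called scaled reads here, were 469 and 951 at the last end in the controls. After 1, 2, 4 and 8 h they were 83.5, 64.5, 18.1 and 30.3. All 4 treated libraries lay below both controls. The end thus held 11.6% of its control level after 1 h (exact 95% interval 9.11 to 14.6) and 4.22% after 8 h (2.70 to 6.31). Like those below, these intervals hold counting error alone and no spread between libraries. They treat each read as a separate molecule, and reads copied by PCR are not, so they may be too narrow.

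At the end 309 nt upstream, the controls had 175 and 102 scaled reads, and the treated libraries 138, 552, 1523 and 2684 in order of time. The 1 h library lay between the controls and the later libraries above both. In scaled reads, which give no absolute amount, the level at 8 h was 19.6-fold that of the controls (exact 95% interval 17.2 to 22.3). In raw reads the end then ranked 292 among all ends.

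**Figure D1:**
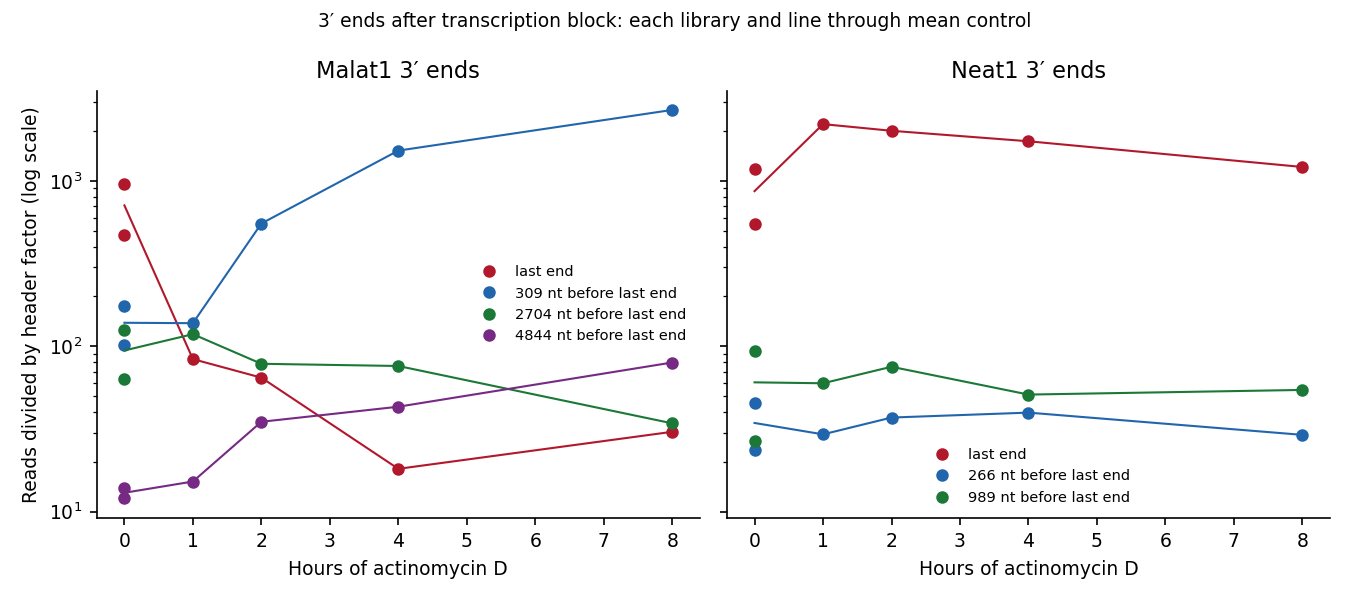
Scaled reads (raw reads divided by the authors' factor, log axis) at each Malat1 end (left) and Neat1 end (right) with at least 60 reads, against hours of actinomycin D. Points are single libraries, with both controls at 0 h, and lines run from the mean of the controls. The last Malat1 end falls to 83.5 at 1 h while the end 309 nt before it reaches 2684 at 8 h, and the last Neat1 end lies above both controls at every time.

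Slopes on hours were fitted to all 16913 ends with at least 60 reads, with the header factors (edgeR quasi-likelihood test, adjusted p under 0.05). Of the 7 members tested, 2 rose and 1 fell. Among all ends 2.71% rose and 52.7% fell, and the median slope was -0.18 log2 per hour, or -0.03 with TMM scaling. The end 309 nt upstream of the last rose by 0.60 ± 0.10 (SE) log2 per hour (edgeR adjusted p = 0.0043), and 99.99% of ends had a lower slope. With TMM, under which 20.8% of ends rose and 28.2% fell, the same 2 members rose. With the header factors they also rose with any 1 library left out, when 1.69% to 3% of all ends rose. The slope of 5795999 then ranged from 0.54 to 0.91, with the highest value without the 8 h library, and that of 5800534 from 0.30 to 0.46.

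For the last Malat1 end the straight line missed the threshold (slope -0.64 ± 0.23, edgeR adjusted p = 0.0759). Without the 8 h library the slope was -1.43 (edgeR adjusted p = 0.00623), and 36.3% of all ends fell. DESeq2 with all libraries gave an adjusted p of 0.0146, and called 52.6% of all ends as falling. With the 4 treated libraries together against the controls, a contrast added after seeing the data, the difference was -3.85 ± 0.63 log2 (edgeR adjusted p = 0.122). The 2 rising members also missed the threshold there, at 3.14 ± 1.15 log2 for 5795999 and 1.72 ± 0.74 for 5800534 (edgeR adjusted p = 0.33 and 0.366). That contrast called 0.13% of ends lower and 0% higher with edgeR, while 1993 and 339 ends were at an unadjusted p under 0.05. With TMM in the same contrast the end was called (-3.41 ± 0.43, edgeR adjusted p = 0.00907), as were 1.48% of all ends lower and 0.0296% higher. A least-squares line of log2 scaled reads on hours gave the end a half-life of 1.83 h. An exponential least-squares fit gave 0.35 h, which is shorter than the first time sampled, 1 h.

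The other Malat1 ends were not alike. The end 5800534, 4844 nt before the last, had 13.96 and 12 scaled reads in the controls and 15.2, 34.9, 43.0 and 79.6 over the treated libraries in order of time. The later 3 lay above both controls. It stood 6.15-fold above the controls at 8 h (exact 95% interval 3.82 to 10.2) and is the other member that rose (slope 0.32 ± 0.07, edgeR adjusted p = 0.00125). The end 5798394, 2704 nt before the last, had 63.3 and 125 in the controls, then 118, 78.2, 75.9 and 34.1. Only the 8 h library lay below both controls. It was the member that fell (slope -0.18 ± 0.07, edgeR adjusted p = 0.0299), at nearly the median slope of all ends. Its call was lost with TMM (edgeR adjusted p = 0.732) and when control 2 (0.097), the 1 h library (0.0614) or the 8 h library (0.533) was left out. For the Malat1 window as a whole, summed scaled reads were at 36.9% of the controls at 1 h and at 2.93-fold at 8 h. The slope of the sum was 0.24 ± 0.07 (edgeR adjusted p = 0.0265) in a fit over 10732 loci, of which 2.41% rose and 60% fell. Leaving out control 1 (0.09), the 4 h library (0.0541) or the 8 h library (0.392) ended that call.

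The balance between the last 2 Malat1 ends was compared within libraries. In control 1 the last end took 72.8% of the reads at both (Wilson 95% interval 69.1 to 76.2), and in control 2 90.3% (88.4 to 92.0). Its share was 37.7% at 1 h (31.4 to 44.6), 10.5% at 2 h (8.23 to 13.2), 1.18% at 4 h (0.725 to 1.90) and 1.12% at 8 h (0.752 to 1.66). The share lay below both controls from 1 h on, and the intervals of the 4 and 8 h libraries overlap. In a fit over 3844 pairs of ends, with a term per library, the last end lost -1.26 ± 0.26 log2 per hour against the end upstream (95% interval -1.87 to -0.66, edgeR adjusted p = 0.042). Pairs called with the downstream end lost faster made up 3.25% of all pairs, and those called the other way 1.01%. The edgeR call was lost whichever of the 6 libraries was left out, with slopes from -2.30 (no 8 h library) to -1.06. Dropping the 1, 2, 4 or 8 h library gave edgeR adjusted p values of 0.0817, 0.0515, 0.0775 and 0.0572. Those fits called 34, 101, 15 and 0 of all pairs with the downstream end lost faster, against 125 with all 6 libraries. Calls thus became fewer over all pairs and not only at Malat1. DESeq2 with all libraries called the pair (-1.12 ± 0.26, adjusted p = 0.00101), and 260 pairs in that direction. The outermost Malat1 ends, 5800534 and 5795690, were called too (-0.88 ± 0.19, edgeR adjusted p = 0.0447), among 138 such pairs.

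**Figure D2:**
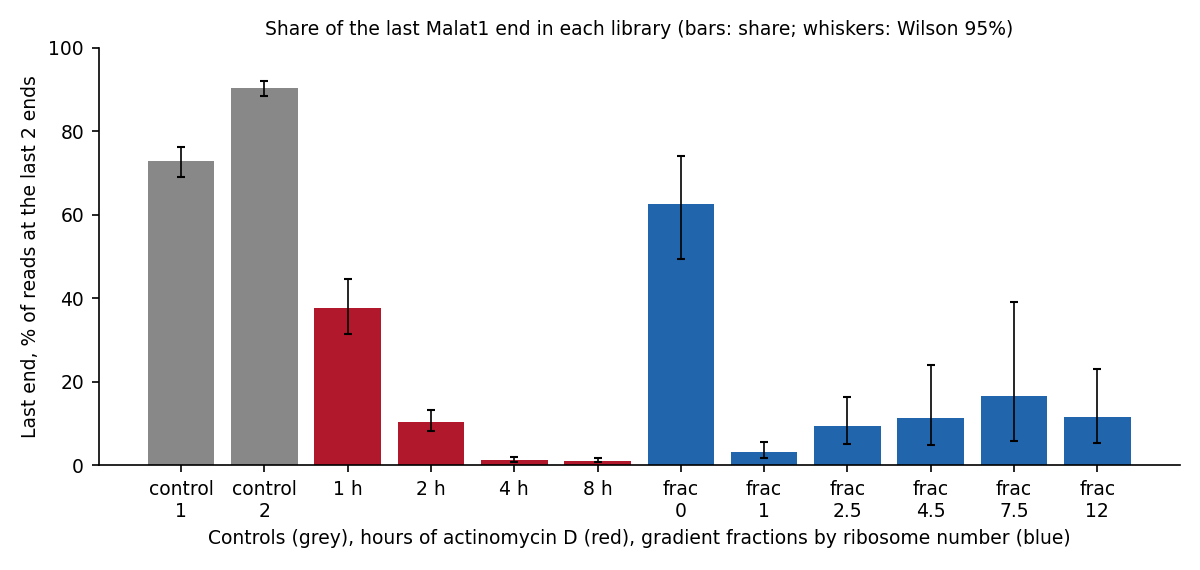
Share of the last Malat1 end among reads at the last 2 Malat1 ends (per cent, from 0) in each of the 12 libraries. Bars are single libraries and whiskers Wilson 95% intervals. The share is 72.8% and 90.3% in the controls, 1.12% after 8 h of actinomycin D, 62.5% in the gradient fraction named 0 and 3.13% in the fraction named 1.

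Neat1 ends did not follow either Malat1 pattern. The main end, 5842308, had 550 and 1183 scaled reads in the controls and 2202, 2008, 1735 and 1212 over the treated libraries in order of time. Each treated library lay above both controls, and from 1 h on the values were lower at each later time. Against the pooled controls the level was 2.51-fold at 1 h (exact 95% interval 2.35 to 2.68) and 1.38-fold at 8 h (1.28 to 1.496). The slope over all hours was 0.02 ± 0.10 log2 per hour (95% interval -0.24 to 0.27, edgeR adjusted p = 0.91). With the 8 h library left out it was 0.24 (edgeR adjusted p = 0.393). With the treated libraries together against the controls it was 1.05 ± 0.38 log2 higher (edgeR adjusted p = 0.327), or 1.58 ± 0.35 with TMM (edgeR adjusted p = 0.063).

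The minor Neat1 ends stayed between the controls. The end 5842574 had 23.6 and 45.0 scaled reads in the controls, then 29.3, 37.0, 39.6 and 29.1, all between the controls. The end 5843297 had 26.8 and 94.0 in the controls and 59.6, 75.1, 51.0 and 54.4 after treatment, also all between them. Neither slope passed the test (-0.01 ± 0.07 with an edgeR adjusted p of 0.886, and -0.03 ± 0.07 with 0.766). The ratio of the last end to 5843297 changed by 0.05 ± 0.08 log2 per hour (95% interval -0.13 to 0.23, edgeR adjusted p = 0.755).

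The authors' deposited table gives half-lives for 5 of the 7 ends that pass the authors' filter. It lists 0.333 h for the last Malat1 end, 3.36 h for 5798394, and 7.48 h, 6.38 h and 5.82 h for the Neat1 ends 5842308, 5842574 and 5843297, against a median of 2.88 h over 17970 ends passing the filter. The file headers do not give the unit, which is read here as hours. For these 5 ends an exponential rate fitted to the scaled reads plus 0.1 per hour gave the deposited value within 0.001 h in 5 of 5 cases. What the added rate stands for was not tested. The fitted rate of the last Neat1 end before that addition was -0.0073 per hour. That is a slight rise in scaled reads, so its deposited 7.48 h depends on the addition. For the Neat1 ends 5842574 and 5843297 the fitted rates were 0.0086 and 0.019 per hour, or half-lives of 80.3 h and 36.5 h. The 0.1 per hour is thus the larger part of the rate behind their deposited values. The Malat1 end 5798394 had a fitted half-life of 6.52 h. The deposited half-life is missing for 5795999 and 5800534, where the fitted rates were -0.26 and -0.19 per hour and the sum is below 0, although 5795999 had 4382 reads over the 6 libraries.

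In the gradient both RNAs lay mainly in the light fractions, and single ends had different peaks. Over the fractions named 0, 1, 2.5, 4.5, 7.5 and 12, the median end had 3.92%, 6.65%, 18.8%, 17.7%, 17.6% and 24.9% of its scaled reads. For the last Malat1 end there were 35, 10, 10, 5, 3 and 6 raw reads, or 59.3%, 11.4%, 15.8%, 5.06%, 2.52% and 5.91% of its scaled reads. It was concentrated in the fraction named 0, which is free of ribosomes by its name, where 99.8% of 18484 ends had a lower share. These shares rest on 69 reads.

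The Malat1 end 309 nt upstream peaked 1 fraction further. It had 21, 310, 97, 39, 15 and 46 raw reads, or 5.56%, 55.3%, 23.9%, 6.17%, 1.97% and 7.08% of its scaled reads. In the fraction named 1, 99.95% of ends had a lower share. The end 5800534 peaked there too, with 58.0% (78 of its 130 raw reads), as did 5798394, with 37.7% (153 of 389 raw reads). Of the last 2 Malat1 ends, the last took 62.5% of the reads in the fraction named 0 (Wilson 95% interval 49.4 to 74.0) and 3.13% in the fraction named 1 (1.71 to 5.66), and these intervals do not overlap. A linear change in the log2 ratio of the last end to the end upstream over all fractions was not called (-0.46 ± 0.46 log2 per fraction, edgeR adjusted p = 0.771, a pair added after seeing the data). That fit held 3844 pairs, of which 1 was called with the downstream end falling faster and 11 with it falling more slowly. A second fit took the pair with most gradient reads at each of 4283 loci and called 0.0467% and 0.304% in these directions. In it the Malat1 pair 5798394 and 5795999 gave -0.16 ± 0.22 (edgeR adjusted p = 0.885), with -0.65 without the fraction named 12 (edgeR adjusted p = 0.194) and 0.05 without that named 1, so its sign rests on single fractions. In the same fit the Neat1 pair 5842574 and 5842308 gave -0.22 ± 0.06 (edgeR adjusted p = 0.16).

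The last Neat1 end was spread more evenly over the 3 lightest fractions. It had 807, 1102, 1321, 857, 509 and 464 raw reads, or 21.1%, 19.5%, 32.3%, 13.4%, 6.61% and 7.07% of its scaled reads. The end 5842574 had 13.1%, 18.0%, 35.4%, 14.2%, 8.24% and 11.1%, with the same peak in the fraction named 2.5. The end 5843297 had 28.3% in the fraction named 0 and 27.9% in that named 2.5, on 84 raw reads.

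**Figure D3:**
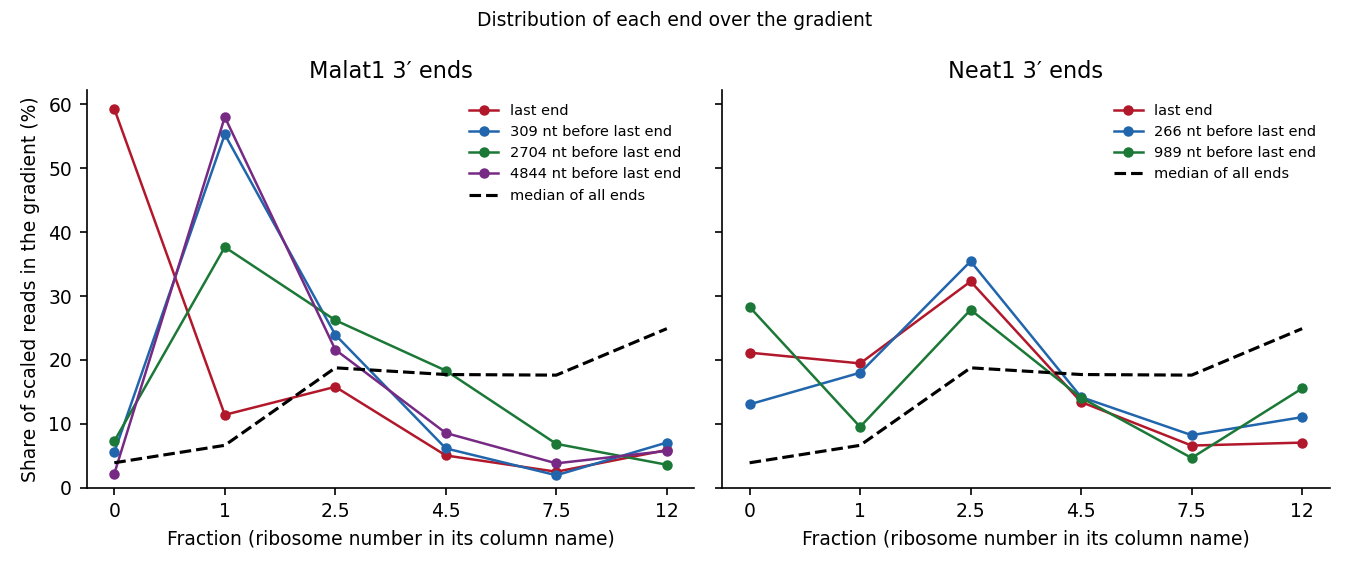
Share of each end's scaled reads in the 6 gradient fractions (per cent), for Malat1 ends (left) and Neat1 ends (right) with at least 60 reads in the gradient, with the median of all ends dashed. Each line is 1 end in 1 gradient. The last Malat1 end has 59.3% in the fraction named 0, the end 309 nt before it 55.3% in the fraction named 1, and the last Neat1 end 32.3% in the fraction named 2.5.

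Summed over the 3 lightest fractions, Malat1 had 79.1% and Neat1 72.5% of its scaled reads, against 30.7% for the median end and 26.7% for the median of the 300 most abundant ends. The 2 heaviest fractions held 9.56% and 14.02%, against 49.1% for the median end. In the mean of the fraction names weighted by scaled reads, which is the authors' ribosomes per mRNA, the Malat1 ends with at least 60 reads ranged from 1.64 to 2.81 and the Neat1 ends from 2.95 to 3.65. The median over all ends was 6.32. For a noncoding RNA this number gives the place in the gradient and does not show bound ribosomes.

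All 7 members tested fell towards the heavy fractions relative to the rest of the library (edgeR slope on fraction rank, TMM, adjusted p under 0.05), against 4.28% of all 18484 ends. A rise was called for 0 members, 0.438% of all ends and 0.53% of loci. Among members the steepest was the last Malat1 end, which fell by 1.27 ± 0.19 log2 per fraction (edgeR adjusted p = 1.44e-05) and the end upstream of it by 1.06 ± 0.23 (edgeR adjusted p = 0.00208). Neat1's last end fell by 0.88 ± 0.20 (edgeR adjusted p = 0.00464). Over loci, of which 4.85% fell, the slope was -1.02 ± 0.20 for the Malat1 window (edgeR adjusted p = 0.00095) and -0.85 ± 0.20 for Neat1 (edgeR adjusted p = 0.00511). The calls depend on the scaling: with the header factors, which moved the median slope of all ends from 0.04 to 0.50, 2 of the 7 members were called, the last 2 Malat1 ends, against 0.876% of all ends. They also depend on single fractions, and so does the share of all ends that fell. Without the fraction named 7.5, 1 of 7 members was called, the last Malat1 end, against 1.29% of all ends, and the adjusted p of the Neat1 window was 0.083. The slopes of the 6 members no longer called ranged from -0.98 to -0.62. Without the fraction named 1, 2 of 5 were called, both at Neat1 (5842308 and 5843297), against 1.66% of all ends. There 5795999 had a slope of -0.59 (edgeR adjusted p = 0.149) and 5798394 one of -0.69 (edgeR adjusted p = 0.131). Without the fraction named 0, 5 of 6 were called against 7.59% of all ends, and 5843297 had a slope of -0.41 (edgeR adjusted p = 0.277). Without the fraction named 12, 5 of 7 were called against 2.41%, and 5798394 and 5800534 were not.

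The level in the gradient against the controls set the last Malat1 end apart from the other members. The scaled reads summed over the fractions were divided by the mean of the controls, and this ratio by that of the median end, since the authors scaled the gradient and the time course separately. This end had 1388 reads in the controls and 69 in the gradient, and its ratio was 0.0211 of the median end, 47.4-fold lower (95% interval from counts 37.2 to 61.3). Only 4 of 13418 ends with at least 60 control reads, this one included, were that low. With control 1 alone it was 32.7-fold lower and with control 2 alone 61.6-fold.

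The other ends lay closer to the median end, and most changed with the control used. The Malat1 end 309 nt upstream had 265 control and 528 gradient reads, 0.692 of the median end (0.596 to 0.805), or 0.526 by control 1 and 0.969 by control 2. For 5798394 the ratio was 0.738, or 1.05 and 0.573. The last Neat1 end had 1695 control and 5060 gradient reads and a ratio of 1.12 (1.06 to 1.18), but 1.69 by control 1 and 0.844 by control 2, so it lay on either side of the median end. For 5842574 the ratio was 1.25, or 1.74 and 0.979. The Neat1 end 5843297 was lower, at 0.267, or 0.577 and 0.177. Of the 6 members with at least 60 control reads, 1 lay at least 4-fold under the median end, as did 4.06% of all such ends and 26 of the 300 most abundant ones. The summed Malat1 window stood at 0.221 of the median end and Neat1 at 1.07, or 1.64 by control 1 and 0.801 by control 2. The Malat1 sum mixes the last end with ends that were not so low. RNA of the controls was extracted with Trizol and that of the gradient after fractionation, per the labels, and what share of nuclear RNA entered the gradient is not stated. Loss in preparation and a lower level in the gradient cells cannot be told apart here.

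**Figure D4:**
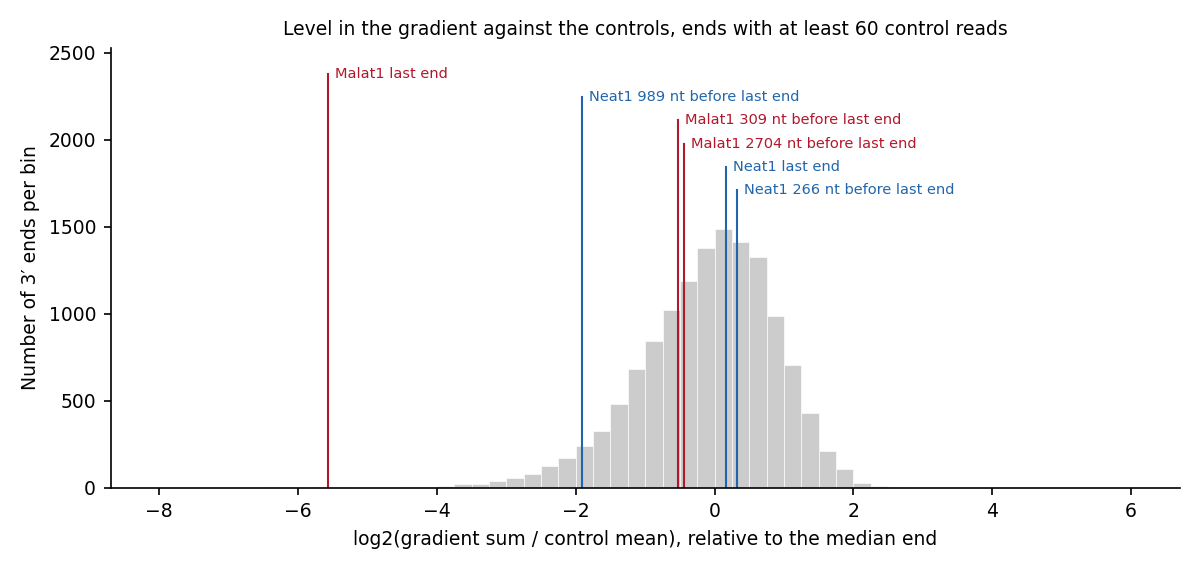
Distribution over 13418 ends of log2(gradient sum / control mean) relative to the median end (grey bars, number of ends per bin), with vertical lines at the 6 members with at least 60 control reads (red Malat1, blue Neat1). Line heights carry no value. The last Malat1 end, 47.4-fold under the median end, lies far below the bulk, and the last Neat1 end, at 1.12 of the median end, lies within it.

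Likeness over all 12 libraries was measured by Pearson's r of log2(scaled reads + 0.5), among 8282 other ends with at least 200 control reads, as a description of libraries from a single time course and gradient. The ends most like the Malat1 window lay on chromosome 17 (27717336, minus, r = 0.94), chromosome 10 (128061585, minus, r = 0.92) and chromosome 13 (54898128, plus, r = 0.91). The end on chromosome 17 had 556 and 794 control reads, 1129 at 8 h and 371 in the fraction named 1 against 90 in that named 12. The ends most like the Neat1 window were 39428507 and 39428213 on chromosome 1 (plus, r = 0.83 for both) and 68718034 on chromosome 11 (plus, r = 0.80). The last Malat1 ends were compared in the same way after their values were seen. For the last end the nearest was 164153828 on chromosome 1 (plus, r = 0.87). It had 238 and 399 raw reads in the controls, 67 at 8 h, 196 in the fraction named 0 and 7 in that named 12. The end upstream was most like 80103456 on chromosome 10 (plus, r = 0.90), with 552 and 417 control reads and 867 at 8 h. Next was 128061617 on the same chromosome (minus, r = 0.89), with 1182 and 781 control reads, 5534 at 8 h and 1994 in the fraction named 1. Between members, r was 0.42 for the Malat1 and Neat1 windows and 0.17 for the last 2 Malat1 ends. With the last Neat1 end, r was 0.15 for the last Malat1 end and 0.46 for the end upstream of it. These pairs were not picked from many, unlike the ends above.

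Of the nearest ends outside the windows on the same strand, only that downstream of Malat1 had enough control reads to describe. This end (5758427), 36573 nt from the Malat1 window, had 518 and 603 control reads and 58 at 8 h. It had 64 in the fraction named 0 and 630 in that named 12. The nearest end upstream of the Neat1 window (5850975) had 2 and 1 reads in the controls, too few to describe.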

How the data were processed

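The authors' deposited table holds raw read counts at poly(A) sites they annotated from 3P-Seq, with mm9 positions and 1 dividing factor per library, per the file headers. Bowtie and mm9 are named in the submitters' processing notes, and no Bowtie version is given there. The deposited half-life and ribosomes per mRNA are the authors' values. The latter was recomputed for 30164 of 30164 ends within 1e-06. Columns left unused numbered 0. Fraction columns were tied to the gradient only, not to fraction numbers.

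Counts were fitted with edgeR 4.0.16 in R 4.3.3 (quasi-likelihood, robust, Benjamini-Hochberg over all features, 60 counts over the 6 libraries of a fit), per end and per locus. Ends within 2000 nt on a strand formed a locus, and each window was 1 locus. Decay used the header factors and the gradient TMM. DESeq2 1.42.0 was an alternative. Each time and fraction is 1 library, so p-values measure spread around a line, which may be technical. Scripts were tested on simulated data with straight-line slopes and a fixed spread. Curved courses, such as that of the last Malat1 end, and scaling by the header factors were not covered by it. Every end in the windows is named, with the ends most like each window and the Malat1 ends. Members, though set by position and not by their values, were chosen with earlier results of these data known, as were the lists and tests. Lists of proteins and RNAs of nuclear bodies were not used, since the table names no genes.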

Additional observations from a re-analysis of the deposited data

How the results depend on the processing

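Fits and values were repeated under other scalings, tools, count minimums and pseudocounts and without each library. The contrast of all actinomycin D libraries with the controls and the gradient pair chosen by decay counts were added after seeing the data. No paired analysis was possible because the replicate numbers of the controls, time points and fractions name different libraries and pair none of them. Why values moved was not tested. Leaving out each library in turn, the Malat1 slope after actinomycin D ranged from 0.20 to 0.31 log2 per hour, the slope of its last pair from -2.30 to -1.06, the Neat1 gradient slope from -0.92 to -0.82 (-0.83 without the fraction named 7.5, edgeR adjusted p = 0.083), and the straight-line Neat1 decay slope from -0.049 to 0.26. The Neat1 level in the gradient ranged from 0.801 to 1.64 of the median end with either control left out, so it lay on both sides of 1. The Malat1 window slope lost its call with no count minimum (0.24, edgeR adjusted p = 0.0793) and in the added contrast (0.54, or 1.51 with TMM). With the header factors the Neat1 gradient slope was -0.40 (edgeR adjusted p = 0.171). By library totals, the share in the 3 lightest fractions was 87.5% for Malat1 and 83.6% for Neat1, and the Malat1 level was 0.322 of the median end. Its most abundant control end alone gave 0.0211. In the added contrast with TMM, 5798394 was 0.16 log2 higher (edgeR adjusted p = 0.804) in place of lower. Over all ends, 459 rose and 8918 fell with the header factors, and 3512 and 4774 with TMM. In the gradient, 81 rose and 792 fell with TMM, and 7279 and 162 with the header factors. The last Malat1 end could be fitted in the gradient without only 3 of the 6 fractions, since the others left it under 60 reads.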
